A study of Saccharomyces cerevisiae with 5 samples.

Results

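HAA1 (YPR008W) encodes a transcription factor of budding yeast, and the 8 genes described with it, YRO2, YGP1, GPG1, PHM8, SPI1, TPO2, HRK1 and GRE1, are known to depend on it when cells meet weak organic acids. These 9 genes were taken by name from the 5449 S. cerevisiae genes measured, and 10 probe sets of the array are annotated to them, 2 of which belong to TPO2. The genes were chosen by their known tie to Haa1 and by the measured log2 differences between the strains, since YRO2, YGP1 and GPG1 were already seen among the genes most raised in the PHO2 deletion arrays. The differences of the 9 genes between the strains are therefore given as a description, without a p-value. They support no statement about the group as a whole.

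The arrays carried biotin-labelled RNA of 2 samples of a PHO2 deletion mutant and 3 samples of the wild-type strain FY4. All cultures grew exponentially in batch in minimal medium with glucose, at 30 °C and 300 rpm, with no added acid named in the labels. PHO2 encodes a homeodomain transcription factor that acts with partner factors at purine, histidine and phosphate genes, and the comparison asks which transcripts differ when it is deleted. The labels do not give the extent of the deletion, the marker used or the number of clones, nor whether samples of a group came from separate cultures. The p-values below may then measure a spread that is only technical.

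Haa1 belongs to the copper-fist family of DNA-binding proteins but is not known to answer to copper. A weak acid such as acetic acid crosses the plasma membrane uncharged, releases its proton in the cytosol and leaves its anion behind. Under such stress Haa1 gathers in the nucleus and switches on genes for membrane transporters, cell wall proteins and enzymes, and cells without it adapt slowly to acetic acid. Several of its targets also answer to the general stress factors Msn2 and Msn4.

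The values are log2 of the deposited probe set signal, a linear intensity. The probe set of PHO2 (YDL106C) itself had log2 signals of 10.07 and 10.84 on the PHO2 deletion arrays, against 10.72, 10.54 and 10.38 on the wild-type arrays. These groups overlapped (log2 difference -0.09, SE 0.24, adjusted p = 0.825 by limma). The 2 deletion arrays were 0.77 apart, a gap at percentile 99.6 of all genes, and their PHO2 signals do not show the deletion. The position of the probes relative to the deletion is not given, so the strain names are used as labels. Over all 5449 genes, 275 passed an adjusted p of 0.05 (5.05%), with 173 higher (3.17%) and 102 lower (1.87%) in PHO2 deletion, and 173 higher and 210 lower when the arrays were quantile normalized again. The median difference of all genes was 0.01. Values below a log2 signal of 6.44 cannot be told from the background of probe sets without a matched gene. Without wild-type replicate 1 or either PHO2 deletion array the count of called genes was 23, 19 or 26. Where a deletion array was left out, the remaining one was assumed to vary as the wild-type arrays did.

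The listed Haa1 targets differed widely among themselves. The 9 genes described had higher means in PHO2 deletion (51.7% of all genes did), and in each of them both deletion arrays lay above all 3 wild-type arrays, a pattern that 27.1% of all genes showed. The differences spread from 0.10 for HRK1 to 3.56 for YRO2, with a median of 1.0. Without HAA1, the 8 targets had a median of 1.15. Without YRO2, YGP1 and GPG1 as well, the 5 remaining targets had a median of 0.63. That median is the value of TPO2 on 1 of its 2 probe sets. The other gave 1.80, so this median depends on the probe set used.

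**Figure D1:**
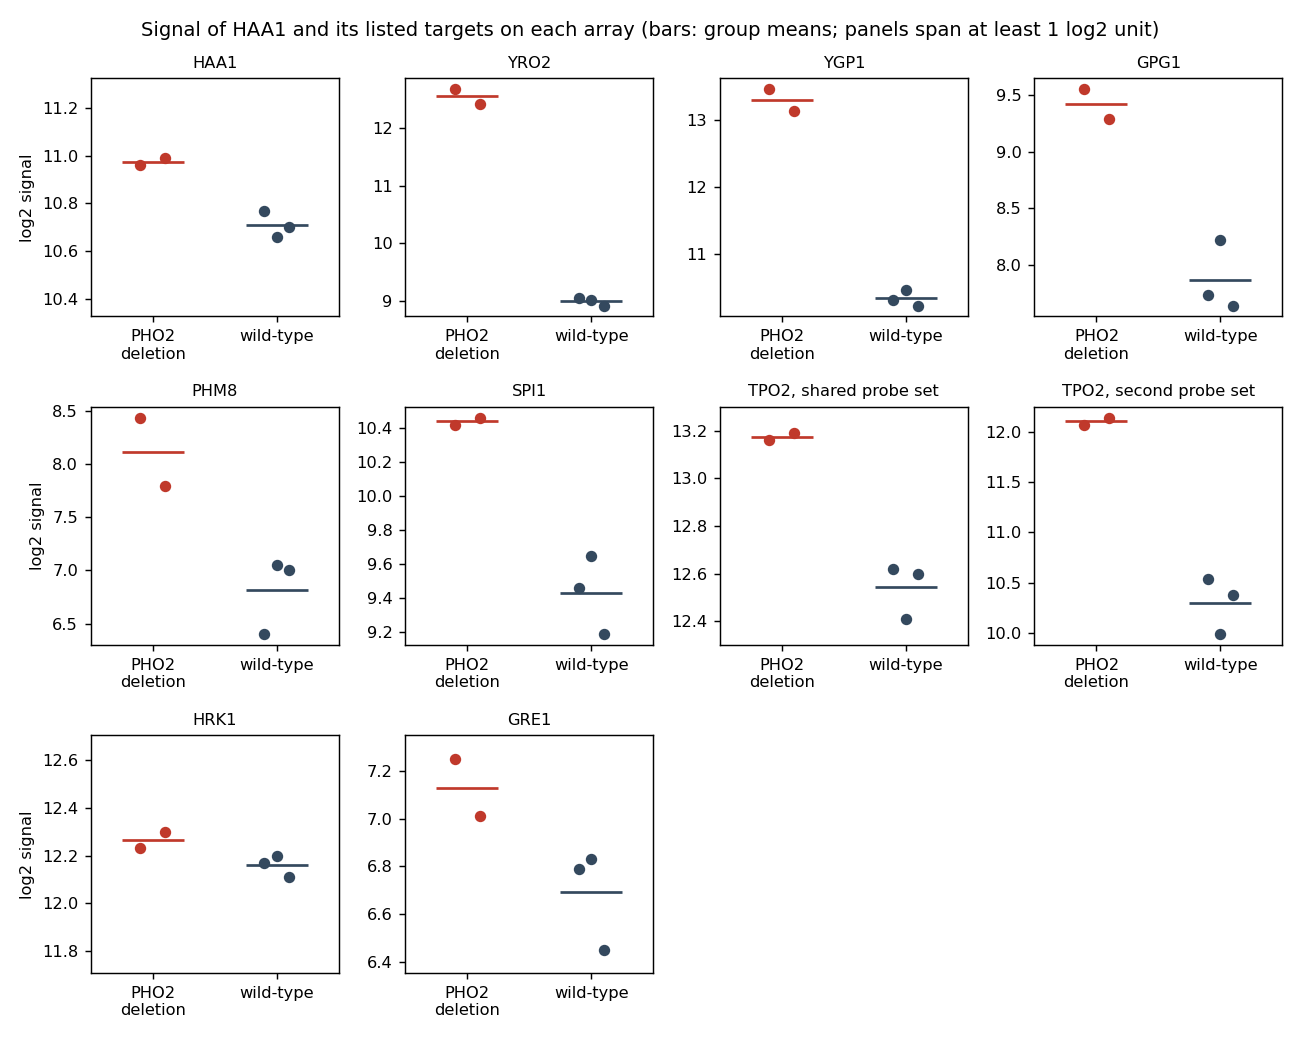
Log2 signal (vertical axis) of the 10 probe sets of HAA1 and its listed targets on the 2 PHO2 deletion arrays (left in each panel) and the 3 wild-type arrays (right), with bars at the group means and a scale of its own in each panel. The groups are apart in all 10 panels, by 3.38 log2 units for YRO2 and by 0.03 for HRK1.

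HAA1, the regulator, had log2 signals of 10.96 and 10.99 on the PHO2 deletion arrays, against 10.77, 10.66 and 10.70 on the wild-type arrays. The groups did not overlap and the deletion arrays were the higher ones, but the step was small. The mean was 10.98 ± 0.02 (SD, n = 2) in PHO2 deletion and 10.71 ± 0.06 (SD, n = 3) in wild-type, a difference of 0.27 (SE 0.06) or 1.20-fold. Ordered from the most positive to the most negative difference, HAA1 ranked 962 of 5449 genes. Haa1 is known to be controlled through its entry into the nucleus, which an RNA measurement does not show.

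YRO2 (YBR054W), a plasma membrane protein with a rhodopsin-like fold, showed the greatest step of the 9 genes. Its log2 signals were 12.68 and 12.43 on the PHO2 deletion arrays, against 9.05, 9.01 and 8.92 on the wild-type arrays. The lowest deletion array lay 3.38 above the highest wild-type array, while the wild-type arrays spanned 0.13. The difference was 3.56 (SE 0.09), or 11.8-fold, and it ranked 2 of 5449 genes.

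Among the cell wall proteins, YGP1 and SPI1 were both higher in PHO2 deletion. YGP1 (YNL160W), a secreted glycoprotein linked to wall changes in stress and starvation, had log2 signals of 13.45 and 13.13 in PHO2 deletion, against 10.33, 10.47 and 10.24 in wild-type. The gap between the groups was 2.66, and the difference was 2.95 (SE 0.12), or 7.71-fold. SPI1 (YER150W), a wall protein held by a lipid anchor, had log2 signals of 10.42 and 10.46 in PHO2 deletion, against 9.46, 9.65 and 9.19 in wild-type. Its groups were 0.76 apart and its difference was 1.0 (SE 0.14).

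TPO2 (YGR138C), a plasma membrane antiporter linked to the export of polyamines and of acetate, had log2 signals of 13.16 and 13.19 in PHO2 deletion, against 12.62, 12.41 and 12.60 in wild-type, on a probe set whose suffix marks it as shared between sequences. Its second probe set gave 12.07 and 12.14 in PHO2 deletion, against 10.54, 9.99 and 10.38 in wild-type. Both probe sets had all deletion arrays above all wild-type arrays, but the difference was 0.63 (SE 0.08) on the shared one and 1.80 (SE 0.17), or 3.48-fold, on the second. The shared probe set entered the fit over 1 probe set a gene because its mean was higher, and with the second in its place the median of the 9 genes was 1.30. Neither the labels nor the annotation say which other sequences the shared probe set reads.

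HRK1 (YOR267C), a protein kinase linked to activation of the plasma membrane proton pump, was nearly level. It had log2 signals of 12.23 and 12.30 in PHO2 deletion, against 12.17, 12.20 and 12.11 in wild-type. The groups were separated by only 0.03, and the difference was 0.10 (SE 0.06).

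GPG1 (YGL121C), which encodes a small protein proposed to act with the G protein alpha subunit Gpa2, had log2 signals of 9.55 and 9.29 in PHO2 deletion, against 7.73, 8.22 and 7.64 in wild-type. The groups were 1.07 apart and the difference was 1.56 (SE 0.20), or 2.94-fold. PHM8 (YER037W), a phosphatase of lysophosphatidic acid and nucleotides that is also known as a phosphate-responsive gene, had log2 signals of 8.44 and 7.80 in PHO2 deletion, against 6.40, 7.05 and 7.0 in wild-type. Its groups were 0.75 apart, but its deletion arrays differed by 0.63 and 1 of its 3 wild-type arrays lay below the background bound. The difference was 1.30 (SE 0.28).

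GRE1 (YPL223C), a hydrophilin made in osmotic and drying stress, had log2 signals of 7.25 and 7.01 in PHO2 deletion, against 6.79, 6.83 and 6.45 in wild-type. The groups were 0.18 apart at signals near the background bound of 6.44. The difference was 0.44 (SE 0.14).

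**Figure D2:**
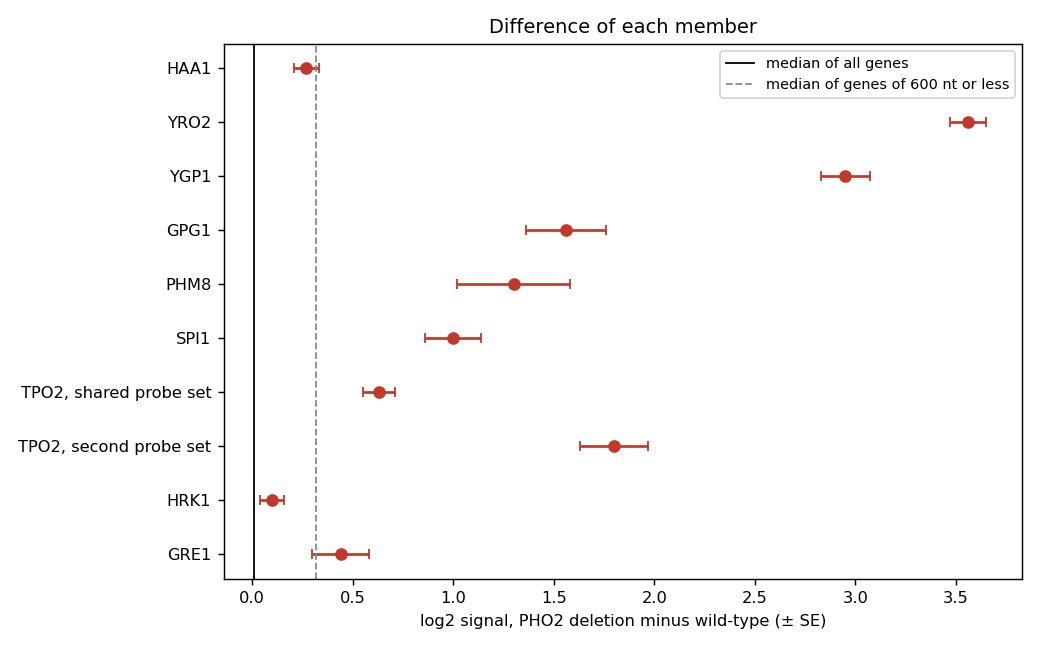
Log2 difference, PHO2 deletion minus wild-type (horizontal axis), with its limma standard error for each probe set of HAA1 and its listed targets, beside the medians of all genes (0.01) and of genes of 600 nt or less (0.32). YRO2 lies at 3.56 and YGP1 at 2.95, and HAA1 and HRK1 lie below 0.32.

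The differences moved by different amounts when single arrays were left out. They ran from 3.43 to 3.68 for YRO2 and from 2.78 to 3.11 for YGP1. Those of GPG1, SPI1 and TPO2 lay between 1.43 and 1.74, between 0.88 and 1.11 and between 0.56 and 0.67. The difference of PHM8 ran from 0.98 to 1.62 as arrays were left out.

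GPG1 (381 nt), SPI1 (447 nt) and GRE1 (507 nt) are short genes, by the gene lengths of assembly R64. The 908 genes of 600 nt or less had a median difference of 0.32, and 61.2% of them had both deletion arrays above all wild-type arrays, against a median of -0.02 and 20.3% for the 4541 longer genes. The differences of GPG1 and SPI1 exceeded the short-gene median, and that of GRE1 was close to it. YRO2, YGP1, PHM8, TPO2, HRK1 and HAA1 are longer, from 966 nt to 2280 nt. The part of gene length in the values of the 3 short genes was not tested.

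The 9 genes were a mixed set by the spread within a group, which enters the SE of the differences above. The limma SE also draws on the spread of all genes. Over the 3 wild-type arrays their SD had a median of 0.12, against 0.09 for all genes. PHM8 (SD 0.36) and GPG1 (0.31) lay at percentiles 95.6 and 93.6 of all genes, while HRK1 (0.05), HAA1 (0.06) and YRO2 (0.06) lay at 24.6, 32.3 and 36.8. Wild-type replicate 2 was the highest of the wild-type arrays for 6 of the 9 genes and wild-type replicate 3 the lowest for 6. The same arrays were highest and lowest for 88.0% and 60.0% of 25 general stress genes described below. The shares were 39.8% and 36.9% for all genes, and 63.4% and 70.9% for genes of 600 nt or less. GPG1, SPI1 and GRE1 are such short genes. Between the 2 deletion arrays, replicate 1 was the higher one for 5 of the 9 genes, against 63.9% of all genes. The gap between these 2 arrays was widest for PHM8 (0.63) and YGP1 (0.32), at percentiles 99.3 and 94.3.

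Other genes reported to depend on Haa1 in acid-stressed cells were then examined, from a list of 12 drawn up by name, of which 11 were measured. All 11 had positive differences (51.7% of all genes did), from 0.07 to 1.18, with a median of 0.30. Both deletion arrays lay above all wild-type arrays for 9 of them (27.1% of all genes). The gap between the groups was 0.07 or less for COM2, SUR2, INM1 and SAP30, and from 0.19 to 0.87 for the others. TDA6, a gene of little known function, was the only one that passed the test (3.17% of all genes were called higher). It had log2 signals of 9.94 and 9.76 in PHO2 deletion, against 8.71, 8.60 and 8.89 in wild-type, and rose by 1.11 (SE 0.11, adjusted p = 0.0145 by limma). TDA6 did not pass without PHO2 deletion replicate 1, PHO2 deletion replicate 2 or wild-type replicate 1 (adjusted p from 0.0737 to 0.14 by limma).

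The 10 others did not pass. STF2, which encodes a small protein tied to the mitochondrial ATP synthase and to drying tolerance, differed by 1.18 (SE 0.34, adjusted p = 0.108 by limma). EGO4 differed by 0.89 (SE 0.23, adjusted p = 0.0882 by limma). YLR297W differed by 0.70 (SE 0.17, adjusted p = 0.0807 by limma). STF2 and EGO4 passed the test without wild-type replicate 2, at 0.0278 and 0.0121, where the count of called genes in the list was 3. STF2 (255 nt), EGO4 (297 nt) and YLR297W (390 nt) are short genes, whose class median was 0.32. ICY1 (384 nt) and SYC1 (567 nt) of this list are short as well. Of all short genes, 85.6% had positive differences and 61.2% had both deletion arrays above all wild-type arrays.

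The genes next to the 9 on their chromosomes, by the gene order of assembly R64, had differences from -0.29 to 0.41. The widest was that of REC8, divergent from HAA1, at 0.41 (SE 0.20, adjusted p = 0.237 by limma). It exceeded the 0.27 of HAA1, and both deletion arrays of REC8 lay above all wild-type arrays. The median difference of the 18 measured protein-coding neighbours was -0.12, and 5 of them were higher in PHO2 deletion (51.7% of all genes were). Their lowest adjusted p was 0.0651 by limma, for SUT2 beside HAA1, which differed by -0.29 (SE 0.06). The neighbours of YRO2 gave -0.05 for YBR053C, which is divergent from it, and -0.10 for PRP6, and those of YGP1 gave -0.15 for CBK1 and 0.10 for ASI2.

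Of 9 paralogs and close relatives, 8 had positive differences (51.7% of all genes did), with a median of 0.25. Both deletion arrays lay above all wild-type arrays for 8 of the 9 (27.1% of all genes). All 9 had an unadjusted limma p below 0.05 (29.4% of all genes). Relatives had smaller differences than their listed partners in all pairs but 1, a contrast that was not tested. In the pairs of YRO2 and YGP1 this order was largely set in advance. Both genes were chosen with their large rises already seen. HSP30, a stress-induced membrane protein of the same family as YRO2 that is known to restrain the proton pump, was the 1 of 9 relatives that passed the test, beside 3.17% of all genes called higher. Its log2 signals were 9.18 and 8.67 in PHO2 deletion, against 7.49, 7.55 and 7.57 in wild-type, and it rose by 1.39 (SE 0.15, adjusted p = 0.0167 by limma). HSP30 passed without any single array but wild-type replicate 1 (adjusted p = 0.0873 by limma). MRH1, the closest paralog of YRO2, differed by 0.17 (SE 0.05, adjusted p = 0.126 by limma).

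SPS100, the paralog of YGP1 with a role in spore walls, differed by 0.37 (adjusted p = 0.0987 by limma). SED1, the wall protein related to SPI1, differed by 0.20, and SDT1, the nucleotidase related to PHM8, by 0.24, and neither passed. CUP2, the copper-responsive paralog of HAA1, was lower, at -0.22 (SE 0.07, adjusted p = 0.131 by limma). In the pair of hydrophilins the order was the other way round. SIP18 differed by 1.23 (SE 0.25, adjusted p = 0.0582 by limma) and GRE1 by 0.44, and 2 of the 3 wild-type arrays of SIP18 lay below the background bound. SIP18 (240 nt) and GRE1 (507 nt) are both short genes, of the class of 600 nt or less with a median of 0.32. Of the transporters related to TPO2, TPO4 differed by 0.49 and TPO1 by 0.25, and neither passed.

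**Figure D3:**
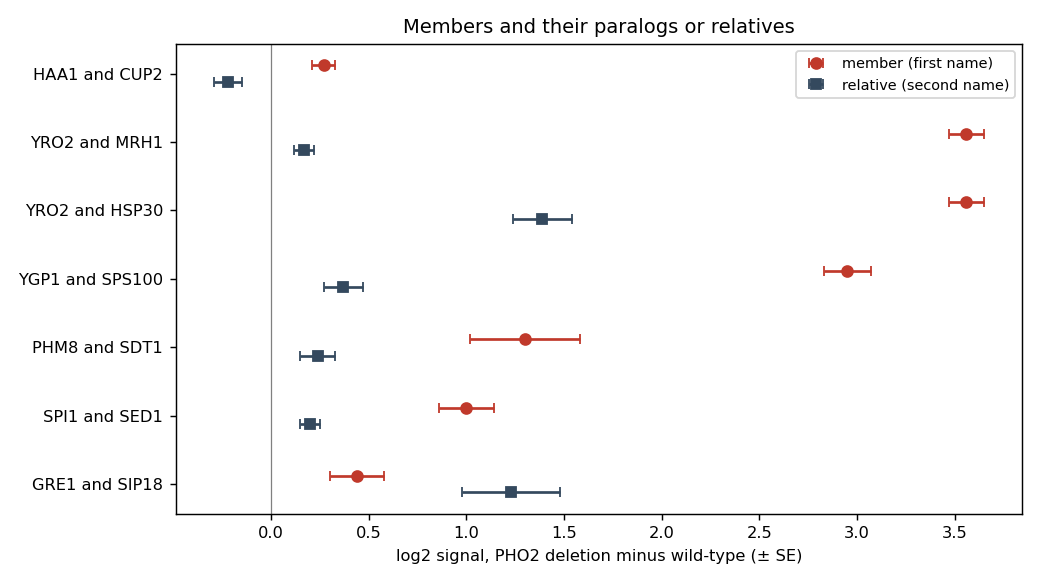
Log2 difference, PHO2 deletion minus wild-type (horizontal axis), with its limma standard error for members (circles) and their paralogs or relatives (squares). The member lies to the right of its relative in every pair but GRE1 and SIP18, where GRE1 is at 0.44 and SIP18 at 1.23. YRO2 and YGP1 were chosen with their large rises already seen, which largely sets the order in their pairs.

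Weak-acid genes outside the Haa1 lists had differences in both directions. Of 14 measured, 4 were higher and 10 lower in PHO2 deletion, with a median of -0.09. Of all genes 51.7% were higher, and of genes over 600 nt 45%. PDR12, the plasma membrane pump that expels sorbate and benzoate anions under the factor War1, was the 1 gene that passed, beside 3.17% of all genes called higher. PDR12 had log2 signals of 11.48 and 11.38 in PHO2 deletion, against 10.99, 10.89 and 10.93 in wild-type, and rose by 0.50 (SE 0.06, adjusted p = 0.0239 by limma). It did not pass without PHO2 deletion replicate 1, PHO2 deletion replicate 2 or wild-type replicate 1 (adjusted p from 0.0896 to 0.18 by limma). WAR1 itself differed by 0.08. The 13 genes that did not pass held the acetate-family transporter gene ATO2 at 0.63 (adjusted p = 0.0786 by limma), the acetic acid resistance transporter gene AZR1 at -0.46 (adjusted p = 0.0848 by limma) and the proton pump gene PMA1 at -0.02.

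Copper genes, the known domain of Cup2 and of the related factor Mac1, held 0 called genes of 8 measured by limma. Over all genes 5.05% were called in either direction, a share at which lists this small can hold 0 called genes. At an unadjusted p below 0.05 there were 2 copper genes, to be read beside 29.4% of all genes. Their median was 0.12. The metallothionein gene CUP1-1 differed by 0.48 (adjusted p = 0.169 by limma) and the copper transporter gene CTR3 by 0.37 (adjusted p = 0.156 by limma). CUP1-1 (186 nt) is a short gene, of the class of 600 nt or less with a median of 0.32. The partners of GPG1 around Gpa2 and the kinases related to Hrk1 held 0 called genes of 10 by limma (5.05% of all genes). Of these 10, 1 had an unadjusted p below 0.05 (29.4% of all genes), and their median was 0.07. There RGS2 had a difference of 0.26 and SAT4 one of -0.17. The 9 genes of transcription factors and of the Haa1 exportin Msn5 held 0 called genes by limma (5.05% of all genes). Among them 0 had an unadjusted p below 0.05 (29.4% of all genes). MSN4 had the widest difference of these, 0.24 (adjusted p = 0.249 by limma), and PHO4 was at -0.19, while MSN2 was at 0.02.

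General stress genes known as targets of Msn2 and Msn4 were higher in the same arrays. Of 25 measured, 24 had positive differences (51.7% of all genes did), with a median of 0.46. By limma 11 rose and 0 fell, beside 3.17% and 1.87% of all genes, and 19 had an unadjusted p below 0.05 (29.4% of all genes). The list was chosen with earlier results of these data known, so its counts are a description and not independent of this contrast. Both deletion arrays lay above all wild-type arrays for 21 of the 25 (27.1% of all genes). The 11 were RTC3 (2.26), HSP12 (1.69), FMP16 (1.63), SOL4 (1.06), CTT1 (0.85), DCS2 (0.83), TFS1 (0.69), GAD1 (0.67), MSC1 (0.50), NTH1 (0.39) and GRE3 (0.34). The first 3 are short genes, RTC3 of 336 nt, HSP12 of 330 nt and FMP16 of 282 nt, and the class of 600 nt or less had a median of 0.32, with 61.2% of its genes above in both deletion arrays. No gene of this list passed without wild-type replicate 1 or either PHO2 deletion array, 5 passed without wild-type replicate 3, and GRE3 did not pass without wild-type replicate 2 either (adjusted p = 0.0537 by limma). HSP12, the small membrane-bound heat shock protein, had log2 signals of 12.66 and 12.72 in PHO2 deletion, against 11.18, 11.23 and 10.61 in wild-type. YRO2 (3.56) and YGP1 (2.95) lay above every gene of this list, and the other 7 genes described lay within its range. The place of YRO2 and YGP1 above the list was largely set in advance, since both were chosen with their large rises already seen. The part of a general stress pattern in the values of the Haa1 targets was not tested.

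**Figure D4:**
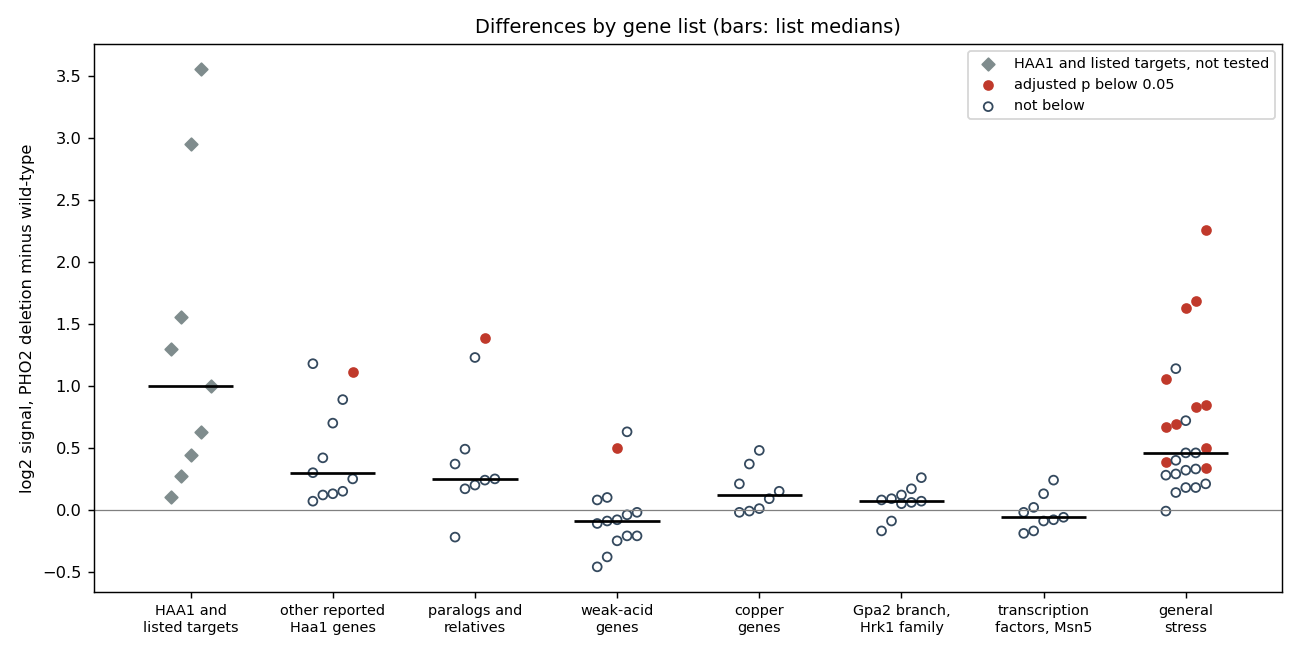
Log2 difference, PHO2 deletion minus wild-type (vertical axis), of each gene in HAA1 with its listed targets and in the 7 other lists, with grey diamonds for HAA1 and its targets, filled circles for an adjusted p below 0.05 in the fit over all genes in the other lists, and bars at the list medians. The medians are 1.0 for HAA1 with its targets, 0.30 for other reported Haa1 genes, 0.46 for general stress genes and -0.09 for weak-acid genes.

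The genes whose 5-array pattern lay nearest to those of the Haa1 targets were found by the root mean square distance between log2 values centred on each gene's mean. FCY21, a purine-cytosine permease family gene, was nearest to YRO2 (0.29) and to YGP1 (0.17), followed by YER053C-A (0.53 and 0.26) and RTC3 (0.72 and 0.44). YRO2 and YGP1 were 0.31 apart. FMP16 (0.12), YCT1 (0.14) and HSP31 (0.14) were nearest to GPG1, and SNO4 (0.14), PRM2 (0.18) and YOL162W (0.19) to PHM8. The pattern of HAA1, which varied little, was nearest to those of TPO1 (0.01), ZRT1 (0.01) and PRY2 (0.02). These distances include the contrast between the strains and describe the 5 arrays only.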

How the data were processed

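RNA was hybridised to Affymetrix yeast arrays, and the authors deposited 1 probe set intensity per array on a linear scale (9.49 to 37719). Per the submitters' processing notes, R 2.8.0, affy and RMA were used. RMA normally gives log2 values, so a return to the linear scale is inferred from the values. Log2 of each intensity was taken. Of 10928 probe sets, 5498 matched 1 gene of assembly R64, and the brightest of each gene was kept (5449 genes, 47 with several probe sets). The background bound, 6.44, is the 95th percentile of 1747 annotated probe sets without a match. All 5449 genes were fitted with limma 3.58.1 in R 4.3.3 (lmFit, eBayes, two-sided), with Benjamini-Hochberg adjustment over all genes and a threshold of 0.05. The fit was also run on simulated data with noise drawn independently for each gene and array. That run cannot check errors from effects that the genes of an array share. Exact permutation of the 5 arrays cannot give a p below 0.1. Groups and replicate numbers come from the titles. The number of arrays limits the precision. One further listed gene is not reported here, so counts and medians of the listed genes leave it out. Members and lists were chosen with earlier results of these data known. From each list the text names every gene past the threshold or, with none, the 2 widest differences, and others named were chosen after their values were seen. Alternatives were another quantile normalization, a filter on dim genes, a trend, array weights, all probe sets, an offset of 50, a replicate block and leaving out each array. NRE1 and CUP1-2 had no matched probe set and were not analysed here.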

Additional observations from a re-analysis of the deposited data

How the results depend on the processing

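The differences of the 9 genes kept their sign under every alternative run. The median of HAA1 and its targets was 1.15 with every probe set counted and 0.88 with the replicate block. All genes called were 275 (5.05%) in the main fit, 383 (7.03%) with quantile normalization again and 352 (6.46%) with a trend. They were 638 (11.7%) with array weights, 305 (5.6%) with the offset and 35 (0.642%) with the replicate block. The list counts that follow are to be read beside these shares. Relatives called were 3 with a trend, 4 with array weights, 2 with the offset and 0 with the replicate block. Weak-acid genes called were 2 with quantile normalization again, 2 with a trend, 3 with array weights and 0 with the replicate block. Other Haa1 genes called were 3 with array weights, and general stress genes called were 2 with the replicate block. With arrays left out 1 at a time, the counts ran from 19 to 257 for all genes, from 0 to 3 for other Haa1 genes, from 0 to 2 for relatives, from 0 to 1 for weak-acid genes and from 0 to 12 for general stress genes. The median of HAA1 and its targets then kept to the range from 0.88 to 1.11. The cause of these changes was not tested, beyond the smaller number of arrays and, for the block, of degrees of freedom. The numbers shared by PHO2 deletion and wild-type arrays are not stated to pair them. Deviations of same-numbered arrays correlated at -0.38 (numbered 1) and near 0 (numbered 2), and calls lost under the block are not read as a change of effect. Wild-type replicate 3 shares its number with no deletion array, so the block also takes it out of the contrast. A planned search of promoter motifs was not run, since no sequence was used here. Signals near 6.44 limit GRE1, PHM8 and SIP18.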
